A study of Mus musculus with 4 samples.

Results

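Neural progenitors are the dividing cells that line the ventricles of the embryonic brain and give rise to its neurons and, later, its glia. The 10 genes described here are expressed in such cells, and each is a textbook gene of that state. Sox1 and Sox2 encode transcription factors of the SOXB1 group that keep cells in the progenitor state, Sox21 a related factor that counters them, and Sox9 a factor needed for stem cell and glial competence. Pax6 patterns the forebrain and eye. Hes1 and Hes5 are repressors switched on by Notch signalling that hold back neuronal differentiation. Nes (the filament protein nestin), Msi1 (an RNA-binding protein) and Fabp7 (a fatty acid binding protein of radial glia) are in common use as progenitor markers. Genes of this kind mostly start in CpG islands, stretches dense in CpG that lack DNA methylation in most tissues, while Fabp7 does not. Tet1 encodes a dioxygenase that oxidises 5-methylcytosine, the first step of removing the mark. The genes were taken by name, 10 of 20807 autosomal protein-coding genes of GENCODE vM21. No value measured here entered that rule, though earlier results of these data were known when the genes were chosen.

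CpG methylation was measured by whole-genome bisulfite sequencing (WGBS) in the brain of 4 male mouse embryos at E11.5, from dams of the 129S6.Cg-Tet1 tm1Koh strain, a line in which a knockout allele made in C57BL/6 was bred onto 129S6. The 4 groups were Tet1 knockout (KO) and wild type (WT) under a maternal diet with excess folic acid (30 ppm) and KO and WT under the control diet (3 ppm). Per the study's methods both diets also held succinylsulfathiazole, an antibiotic that stops gut bacteria from making folate. All dams were heterozygous for Tet1, so the WT embryos also developed in a carrier. The knockout is constitutive, a cassette at the first coding ATG. Each group was 1 embryo. Embryos of the same numbers are listed among the study's samples for a second method, under different litter numbers. There KO had a neural tube defect and WT a normal form in either diet. The study states that 1 WT and 1 KO sample of each of these diets were picked for WGBS as a check on that method. Which embryos were picked is known here only from the match of numbers. If they are the listed ones, genotype and malformation cannot be told apart. With 1 library in each group no value has an SD, and a test on reads compares 2 libraries, not 2 conditions. Whole brain was used, so a level is a mean over all its cells, and a change in the mix of cells cannot be told apart from a change within cells.

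Mean coverage of autosomal CpGs lay between 13.2 and 21.2 reads, highest in KO at 3 ppm, and mitochondrial CpGs, which show how complete the bisulfite conversion was, read as methylated in 0.914% to 0.938% of their reads. A methylation level below is the share of methylated reads over the CpGs of a window that had 5 or more reads in all 4 libraries. A window was called at an adjusted p under 0.05 by Fisher's exact test (two-sided, Benjamini-Hochberg over all genes) and a difference of 10 percentage points (points) or more. Because this test has no spread between embryos in it, a widened test, with its z values divided by their robust SD over all genes (1.30 to 2.35 for KO against WT), was set beside it. Of the 12 calls of KO against WT given below, 2 held under the widened test, Hes1 in its upstream flank and Msi1 in its downstream flank, both at 30 ppm. The windows were the promoter (from 1 kb before to 1 kb after the start site), the flanks 1 to 5 kb upstream and downstream of the start site, and the gene body. Of the 40 windows, 39 could be tested, since the body of Hes5 had no CpG at that coverage.

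The same reads were also counted in 1 kb tiles, described further on, and the following 4 stretches of sequence lie in tiles called higher in KO. They are shown for the CpGs that were counted, in capitals. Each is the 200 bases, outside any UTR, that held the most counted CpGs in 1 called tile of its gene, on the plus strand of GRCm38. Where a gene had several called tiles, the one called in both diets was taken, or otherwise the one with the largest mean difference over the diets. They lie at chr4:154957675-154957874 upstream of Hes5, chr16:30061085-30061284 upstream of Hes1, chr5:115432678-115432877 in an intron of Msi1 and chr10:57783549-57783748 upstream of Fabp7, the last in a window, the upstream flank of Fabp7, that was not itself called.
Hes5 upstream: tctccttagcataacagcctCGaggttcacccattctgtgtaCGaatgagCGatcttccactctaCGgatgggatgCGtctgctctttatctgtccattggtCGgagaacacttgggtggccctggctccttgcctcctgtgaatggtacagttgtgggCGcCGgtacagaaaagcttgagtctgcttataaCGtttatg
Hes1 upstream: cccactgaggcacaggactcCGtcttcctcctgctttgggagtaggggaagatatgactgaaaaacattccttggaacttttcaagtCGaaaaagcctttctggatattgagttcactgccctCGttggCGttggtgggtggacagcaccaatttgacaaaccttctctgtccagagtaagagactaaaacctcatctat
Msi1 intron: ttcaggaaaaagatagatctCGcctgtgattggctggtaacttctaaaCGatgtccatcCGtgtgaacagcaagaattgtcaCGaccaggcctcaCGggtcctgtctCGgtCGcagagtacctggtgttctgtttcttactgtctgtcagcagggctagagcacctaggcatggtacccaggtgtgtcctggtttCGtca
Fabp7 upstream: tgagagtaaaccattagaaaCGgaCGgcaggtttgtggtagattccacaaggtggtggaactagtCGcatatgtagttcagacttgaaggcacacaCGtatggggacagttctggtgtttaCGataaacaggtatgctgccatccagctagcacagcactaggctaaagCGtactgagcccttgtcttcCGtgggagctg

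At the Hes5 stretch, with 9 CpGs, methylation was 39.1% of 69 reads in KO and 20.2% of 114 reads in WT at 30 ppm, and 35.6% of 239 reads in KO and 19.7% of 147 reads in WT at 3 ppm. Both KO libraries were above both WT libraries. At the Msi1 stretch, with 8 CpGs, the levels were 72.0% in KO against 41.7% in WT at 30 ppm, against 59.9% and 63.2% at 3 ppm, so KO was above WT at 30 ppm and slightly below it at 3 ppm. The 4 CpGs of the Hes1 stretch were at 67.9% in KO against 49.2% in WT at 30 ppm, and at 51.7% and 56.9% at 3 ppm. The 7 CpGs of the Fabp7 stretch were at 49.2% in KO against 12.7% in WT at 30 ppm, and at 47.4% and 33.0% at 3 ppm. These short stretches were chosen inside called tiles, so their levels are a description and were not tested.

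The promoters were the first question, since promoter methylation is the form most closely tied to silencing. Sox1, Sox2, Sox9, Sox21, Nes, Pax6 and Hes1, 7 of the 10, lay between 0% and 6.31% in all 4 libraries, in KO as in WT. The exceptions were Hes5, Fabp7 and Msi1, and the last had only 3 counted CpGs. At 30 ppm 1 of 10 promoters was called higher in KO, Fabp7, where 15.4% of all promoters were, and 1 of 10 at 3 ppm, Hes5, where 16.6% were. Neither was called in both diets, against 8.01% of all promoters, and none was called lower (background 0.331% and 0.381%). The 10 promoters had a median difference of 0.37 points under 30 ppm and 0.20 points under 3 ppm, against 3.93 and 3.31 points over all promoters tested. Low levels go with small differences: tiles of 1 kb with a mean under 10% had genome-wide medians of 1.20 and 1.14 points. The 10 promoters were not compared with promoters of like level and CpG number.

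Among the SOX factors, the Sox1 promoter was methylated at 1.46% in KO against 1.62% in WT at 30 ppm, and at 2.83% and 1.49% at 3 ppm. Sox2 had no methylated read at 30 ppm, 0 of 109 in KO and 0 of 96 in WT, which allows a level of up to 2.75% and 3.13% by counting error alone. At 3 ppm it stood at 1.21% and 1.49%. Sox9 stood at 0.62% in KO with 0 methylated reads in WT at 30 ppm, and at 0.68% against 1.09% at 3 ppm. The counted CpGs of these 3 promoters were almost free of methylation in every library, and for Sox1 all 20 of them lay between positions -871 and -357, with 0 of the 43 CpGs within 250 bp of the start site counted. Sox21 alone among the low promoters passed the test, at 6.31% of 222 reads in KO and 1.06% of 284 reads in WT at 30 ppm (difference 5.25 points, 95% interval 2.04 to 9.31, adjusted p = 0.013 by Fisher's exact test), which is under the 10 points needed for a call. Over all genes 21.0% of promoters were higher in KO on the adjusted p alone. At 3 ppm it was at 3.26% and 2.59% (adjusted p = 0.83). Limma, with genotype and diet as terms over the 4 libraries, gave Sox21 an adjusted p of 0.13 for genotype. The Sox21 difference at 30 ppm fell to 2.12 points over 65 CpGs with no coverage minimum (adjusted p = 0.21 by Fisher's exact test) and to 1.61 points within 0.5 kb of the start site (adjusted p = 0.84), and it did not pass the widened test (adjusted p = 0.38).

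Nes, Pax6 and Hes1 were as low. Nes read 1.58%, 1.47%, 2.22% and 0.27%, in the order KO and WT at 30 ppm, KO and WT at 3 ppm. Pax6 read 1.66%, 1.54%, 1.32% and 1.94%, and Hes1 1.82%, 0.84%, 0.39% and 1.25%. All 32 counted CpGs of Hes1 lay between positions 59 and 991, so the part of its promoter before the start site was not measured. The Pax6 promoter was also the best covered, with 68 of its 92 CpGs counted, and the interval of KO minus WT there ran from -1.54 to 1.67 points at 30 ppm and from -1.97 to 0.54 points at 3 ppm. Pax6 has several start sites, and each of the 10 annotated starts of a coding transcript stayed at or under 4.04% in all 4 libraries.

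Hes5 and Fabp7 differed from the rest at their counted CpGs. Hes5 was methylated at 48.0% of 127 reads in KO and 32.3% of 99 reads in WT at 30 ppm, and at 47.5% of 244 reads in KO and 26.1% of 153 reads in WT at 3 ppm. Both KO libraries were above both WT libraries. The difference was 15.7 points at 30 ppm (2.79 to 27.7, adjusted p = 0.081 by Fisher's exact test) and 21.4 points at 3 ppm (11.7 to 30.3, adjusted p = 2.6e-04). Limma over the 4 libraries gave an adjusted p of 0.056. All 13 counted CpGs lay between positions -928 and -599 from the start site, and 0 of the 64 CpGs within 250 bp of it were counted. With no coverage minimum, 77 CpGs of the window entered and the levels fell to 18.0%, 10.8%, 16.7% and 9.96%, with KO still above WT but under 10 points apart, so the call at 3 ppm was lost. The gene body, which begins at the start site, was low at that setting, at 2.60%, 1.35%, 4.21% and 1.60% over 42 CpGs. The methylated part of this promoter thus lay upstream, in the CpGs that were counted.

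Fabp7, whose promoter is poor in CpG, stood at 27.9% of 219 reads in KO and 13.0% of 253 reads in WT at 30 ppm, and at 20.5% of 385 reads in KO and 21.8% of 285 reads in WT at 3 ppm. KO at 30 ppm was the highest library, WT at 30 ppm the lowest, and the pair at 3 ppm lay between them. The difference was 14.8 points at 30 ppm (7.56 to 22.1, adjusted p = 1.0e-03 by Fisher's exact test) and -1.23 points at 3 ppm (-7.59 to 4.93, adjusted p = 0.86). The difference between the diets themselves missed the threshold by the Wald test (adjusted p = 0.059), and so did genotype by limma (adjusted p = 0.33). The knockout allele came from C57BL/6, and Fabp7 lies 5.02 Mb from Tet1 on chromosome 10. Of 70 counted CpGs at its locus, none read 80% or more in both libraries of one genotype and 20% or less in both others. A strain variant could give that pattern only at a CpG that is otherwise highly methylated. At intermediate levels, such as those of this promoter, the rule cannot detect one, and effects of strain were not tested.

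**Figure D1:**
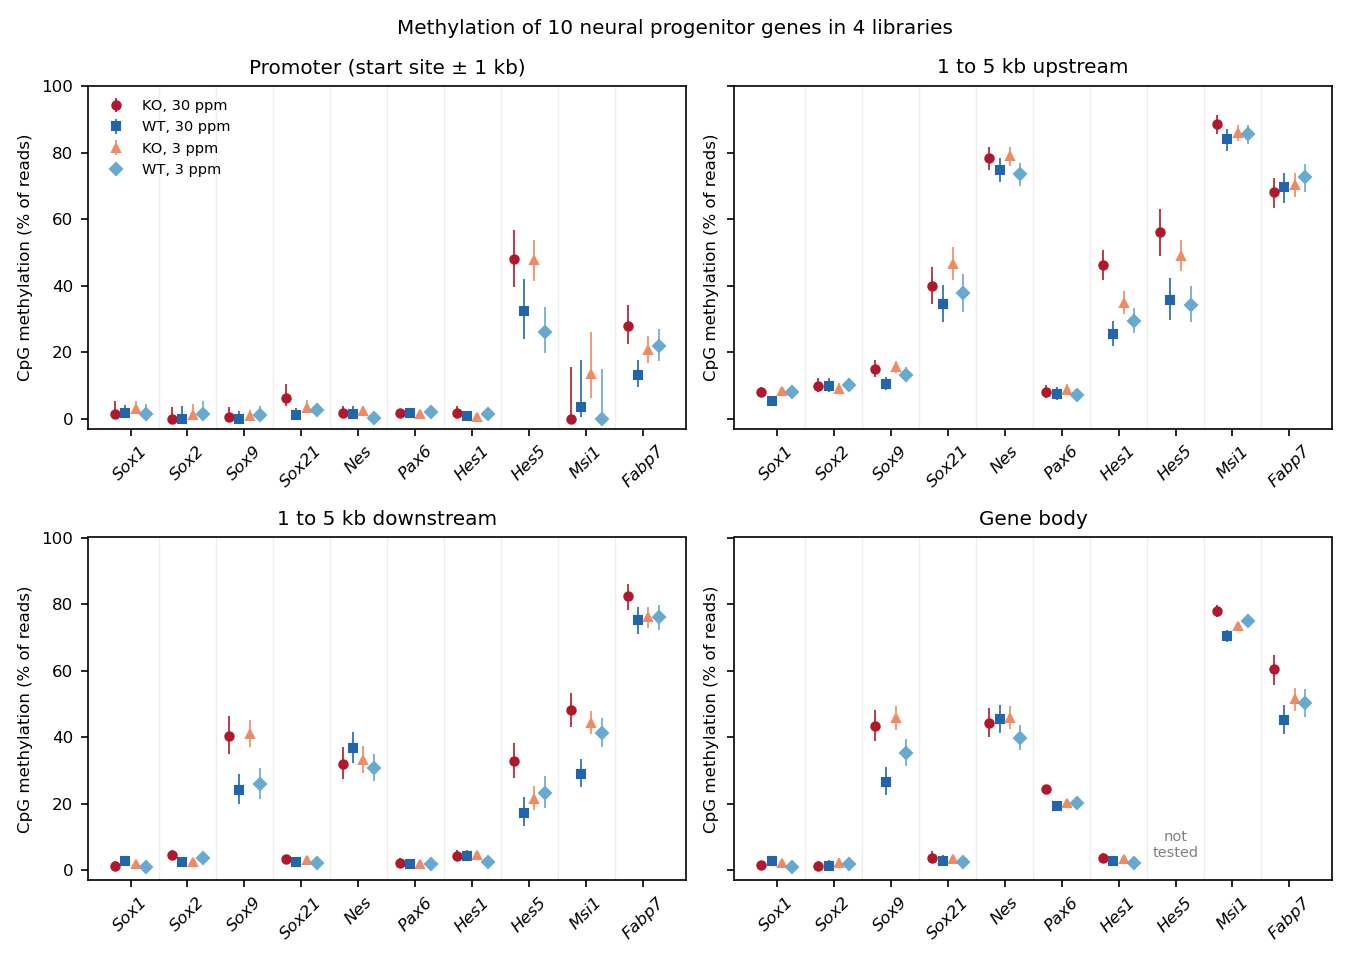
Methylation level (y axis, percent of reads) of each gene (x axis) in the 4 windows, 1 point for each library with its 95% Wilson interval for counting error. Hes5 and Fabp7 stand above the other promoters, and KO stands apart from WT in the upstream flanks of Hes5 and Hes1, the downstream flanks of Sox9, Hes5 and Msi1 and the bodies of Sox9 and Fabp7, in 1 diet or both.

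How much of a promoter could be read limits these values. Of the 1305 CpGs that the reference holds in the 10 promoters, 245 had 5 or more reads in all 4 libraries. The share was 70.8% for Fabp7 and 73.9% for Pax6 but 8.84% for Hes5, 8.77% for Sox2 and 1.62% for Msi1. CpG density moved with it: the promoter of Msi1 has 185 CpGs and a GC content of 71.1%, that of Fabp7 24 CpGs and 44.8%, against medians of 64 CpGs and 51.4% over all genes. In CpG number 9 of the 10 promoters were above that median, Fabp7 being the exception. For Msi1, 0 of 21, 1 of 28, 6 of 45 and 0 of 22 reads were methylated, too few to tell the libraries apart. The part of the Hes5 promoter that was not read is shown as an example, 250 bases that end at the RefSeq start site (GRCm38.p6, plus strand, chr4:154960673-154960922), of whose 32 CpGs none was counted.
Hes5 promoter: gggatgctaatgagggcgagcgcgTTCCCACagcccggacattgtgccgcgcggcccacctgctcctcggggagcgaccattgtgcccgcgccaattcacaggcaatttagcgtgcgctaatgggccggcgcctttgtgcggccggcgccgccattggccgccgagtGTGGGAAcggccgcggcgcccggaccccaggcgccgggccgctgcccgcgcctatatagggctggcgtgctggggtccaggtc
The capitals mark both matches of GTGGGAA, a core of the site bound by RBPJ, the DNA-binding factor of Notch signalling, searched on both strands. The motif was found in 6.38% of the 32851 RefSeq promoter entries of 300 bases, and in 1 of the 7 genes described here that have an entry. A match is only a match of letters.

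In the upstream flank the genes called were Hes5 and Hes1, the Notch targets. Hes5 was at 56.0% of 191 reads in KO and 35.7% of 221 reads in WT at 30 ppm, and at 49.0% of 435 reads in KO and 34.1% of 290 reads in WT at 3 ppm. KO was higher by 20.3 points (10.6 to 29.4, adjusted p = 1.5e-03) and by 14.8 points (7.51 to 21.8, adjusted p = 2.4e-03 by Fisher's exact test). The call at 3 ppm was lost with a minimum of 10 reads, at 23.1 points over 4 CpGs (adjusted p = 0.13 by Fisher's exact test), and at equal depth, at 13.1 points (adjusted p = 0.061). The interaction was not detected (Wald adjusted p = 0.81). Limma gave Hes5 an adjusted p of 0.016 for genotype. The spread in this fit is the difference of KO minus WT between the diets, shared over genes, and not a spread between embryos of a group.

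Hes1 was at 46.2% of 465 reads in KO and 25.5% of 491 reads in WT at 30 ppm, and at 34.8% of 726 reads in KO and 29.4% of 561 reads in WT at 3 ppm. The difference was 20.8 points at 30 ppm (14.7 to 26.6, adjusted p = 7.3e-09 by Fisher's exact test) and 5.44 points at 3 ppm (0.28 to 10.5, adjusted p = 0.21). KO minus WT differed between diets by the Wald test (adjusted p = 0.042), which was lost with a minimum of 10 reads (adjusted p = 0.22), at equal depth (0.16) and from another start site (0.25). Among the 10 genes this flank was also the one window where the KO libraries differed by diet past the call, by 11.4 points higher at 30 ppm (adjusted p = 0.037, background 0.153%), and this call was lost with a minimum of 10 reads, with equal depth, with another start site and with the widened test. Limma gave Hes1 an adjusted p of 0.067.

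In all, 2 of 10 upstream flanks were called higher in KO at 30 ppm and 1 of 10 at 3 ppm, where 4.80% and 3.45% of all genes were. Hes5 was called in both diets, as were 1.44% of all genes. KO was above WT in 9 of 10 upstream flanks at 30 ppm and in 8 of 10 at 3 ppm, with a median difference of 4.15 and 1.96 points, against 2.27 and 1.03 points over all genes. The share of all genes with KO above WT was not counted, and their medians were positive in both diets too. The flanks without a call ranged widely in level. Sox1 and Pax6 stayed under 10% in all libraries, and Sox2 and Sox9 lay between 9.05% and 15.5%. Sox21 lay between 34.4% and 46.6%. Nes, Fabp7 and Msi1 were methylated at 68.0% to 88.7%.

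Downstream of the start site the genes called were Sox9, Hes5 and Msi1. Sox9 was at 40.4% of 282 reads in KO and 24.1% of 332 reads in WT at 30 ppm, and at 41.1% of 560 reads in KO and 25.8% of 345 reads in WT at 3 ppm. The libraries of each genotype lay within 2 points of each other, and the differences were 16.3 points (8.93 to 23.6, adjusted p = 3.4e-04) and 15.3 points (8.98 to 21.3, adjusted p = 7.0e-05 by Fisher's exact test). Limma gave an adjusted p of 0.0078 for genotype. As a mean of CpG levels, in which each CpG counts alike, the difference was 9.04 points at 30 ppm, under the 10 points of a call, and 10.6 points at 3 ppm, and with a minimum of 10 reads it was 20.4 and 23.6 points. The body of Sox9, which shares most of these CpGs, read 43.4% and 26.6% at 30 ppm and 45.7% and 35.2% at 3 ppm, called in both diets (16.8 points, adjusted p = 2.1e-06, and 10.4 points, adjusted p = 1.1e-03 by Fisher's exact test), with a limma adjusted p of 0.021. As a mean of CpG levels the body differed by 9.56 and 8.22 points, both under 10. With no coverage minimum it differed by 11.2 and 7.91 points and lost its call at 3 ppm, and with a minimum of 10 reads by 24.3 and 20.04 points.

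Msi1 was at 48.2% of 365 reads in KO and 29.0% of 472 reads in WT at 30 ppm, and at 44.3% of 803 reads in KO and 41.3% of 506 reads in WT at 3 ppm. WT at 30 ppm was the library that stood apart. KO minus WT was 19.2 points at 30 ppm (12.6 to 25.6, adjusted p = 9.2e-07 by Fisher's exact test) and 3.03 points at 3 ppm (-2.48 to 8.47, adjusted p = 0.57), and the Wald test gave a difference between diets (adjusted p = 0.021), which was lost with a minimum of 10 reads (adjusted p = 0.054). With that minimum KO minus WT at 30 ppm was 29.7 points. WT was 12.3 points lower at 30 ppm than at 3 ppm (adjusted p = 0.010 by Fisher's exact test), the 1 window of the 39 with a diet call in WT, where 0.531% of downstream flanks were called lower. This call was lost with a minimum of 10 reads and with the widened test. Limma gave an adjusted p of 0.10 for genotype.

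Hes5 was at 32.8% and 17.2% at 30 ppm and at 21.4% and 23.1% at 3 ppm in its downstream flank. KO minus WT was 15.6 points (8.52 to 22.4, adjusted p = 3.7e-04) and -1.70 points (-7.89 to 4.18, adjusted p = 0.82 by Fisher's exact test), and the Wald test gave a difference between diets (adjusted p = 0.034), which was lost with a minimum of 10 reads (adjusted p = 0.51) and at equal depth (0.15). The call at 30 ppm was lost with a minimum of 10 reads, at 15.2 points over 8 CpGs (adjusted p = 0.17 by Fisher's exact test). This flank lies beyond the end of the Hes5 gene for most of its length. Sox2 passed the test in its downstream flank with a small difference, at 4.69% and 2.36% at 30 ppm (adjusted p = 0.016) against 2.52% and 3.56% at 3 ppm (adjusted p = 0.29 by Fisher's exact test), and 19.4% of all downstream flanks were higher in KO at 30 ppm on the adjusted p alone. In all, 3 of 10 downstream flanks were called higher in KO at 30 ppm and 1 of 10 at 3 ppm, where 9.20% and 6.59% of all genes were, and 1 of 10 in both, where 3.36% were. Sox1, Sox2, Sox21, Pax6 and Hes1 stayed between 0.94% and 4.69% there in every library.

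In the gene bodies, Fabp7 was called at 30 ppm beside Sox9. Fabp7 read 60.3% of 441 reads in KO and 45.2% of 489 reads in WT at 30 ppm, with 51.3% against 50.3% at 3 ppm. As in its promoter, KO at 30 ppm was highest and WT at 30 ppm lowest. The difference was 15.1 points at 30 ppm (8.71 to 21.4, adjusted p = 2.4e-05 by Fisher's exact test) and 1.05 points at 3 ppm (-4.41 to 6.50, adjusted p = 0.84), and the Wald test gave a difference between diets (adjusted p = 0.011). Of 9 bodies 2 were called higher in KO at 30 ppm and 1 of 9 at 3 ppm, where 3.53% and 3.41% of all gene bodies were, and 1 of 9 in both, where 1.65% were.

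The long genes Pax6 and Msi1 passed the test in their bodies with differences under 10 points. Msi1 read 77.8% and 70.4% at 30 ppm (7.39 points, adjusted p = 1.6e-07) and 73.3% and 74.8% at 3 ppm (adjusted p = 0.32 by Fisher's exact test). Pax6 read 24.5% and 19.3% at 30 ppm (5.21 points, adjusted p = 1.3e-09) and 20.1% and 20.2% at 3 ppm (adjusted p = 0.92 by Fisher's exact test). With many CpGs the read test detects small differences, and 46.1% of all gene bodies passed it in this direction at 30 ppm on the adjusted p alone. Within Pax6 the level changed sharply along the gene. The first 15 kb were at 1.89% to 2.74% in every library, the part from 15 to 19 kb at 28.0%, 20.8%, 25.9% and 21.3% (KO and WT at 30 ppm, KO and WT at 3 ppm), the part from 19 to 23 kb at 6.72% to 8.08%, and the last part at 87.2% to 91.0%. Both KO libraries were above both WT libraries in the part from 15 to 19 kb, which was singled out after its values were seen and was not tested.

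**Figure D2:**
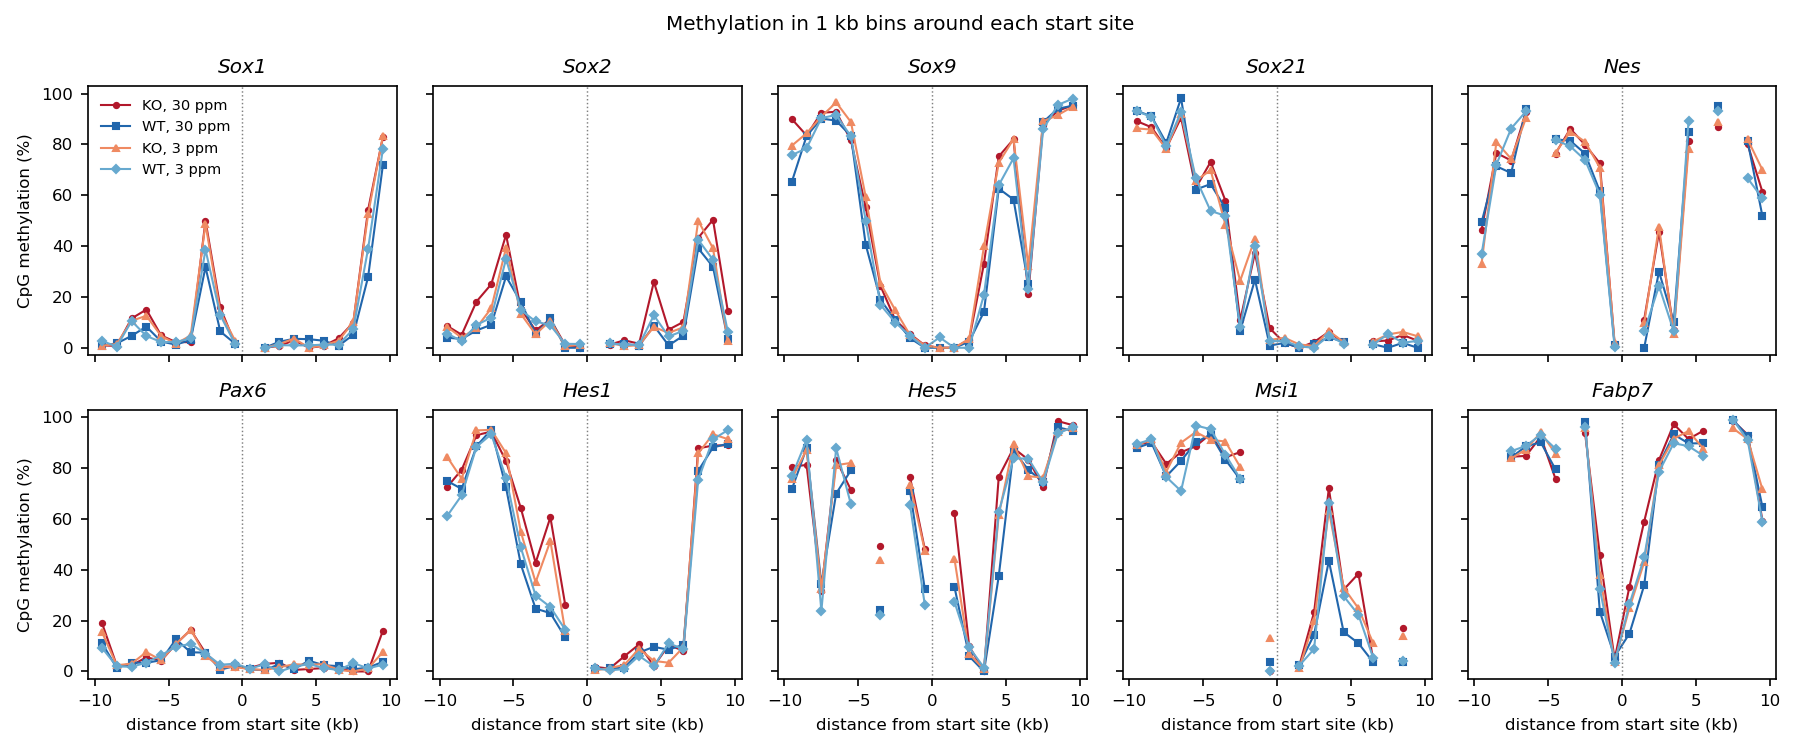
Methylation level (y axis, percent) in 1 kb bins by distance from the start site (x axis, kb, in the direction of transcription) for each gene, 1 line for each library. Lines break where a bin had fewer than 3 counted CpGs, and the SOX genes, Pax6 and Hes1 show a wide unmethylated stretch, while that of Fabp7 is narrow.

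The plot of levels around the start sites shows where these differences lay. To measure the unmethylated stretch, the sequence was followed outwards from each start site to the first run of 3 counted CpGs in a row at 50% or more. At 30 ppm it was narrower in KO than in WT for 9 of 10 genes and equal for Sox21, and over 20806 genes it was narrower for 50.3% and wider for 8.56%. At 3 ppm it was narrower for 6, wider for 2 and equal for 2, against 46.1% narrower and 8.67% wider over all genes. For Fabp7 it spanned 1588 bp in KO and 3627 bp in WT at 30 ppm, and 2964 bp and 3521 bp at 3 ppm, but with a run of 5 CpGs 3521 bp and 3627 bp at 30 ppm, and 3818 bp in KO against 3521 bp in WT at 3 ppm. For Hes1 it spanned 8956 bp in KO in both diets, and 12332 bp and 9971 bp in WT, and it was narrower in KO in both diets with a run of 5 as well. When the first CpG at 50% or more ended it, Hes1 spanned 5209 bp in KO and 8956 bp in WT at 30 ppm. At 3 ppm that rule gave the other direction, with 8956 bp in KO and 5209 bp in WT. These widths depend on the length of the run: with the first such CpG as the end, 7 genes were narrower in KO in each diet, and no share over all genes was taken for that rule. With a run of 5, 8 genes were narrower and 1 wider at 30 ppm, against 51.1% narrower and 10.3% wider over all genes. At 3 ppm 3 were narrower and 5 wider, against 47.0% narrower and 10.1% wider over all genes. The widths were not tested, since each rests on few CpGs.

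The 1 kb tiles numbered 142 at the 10 genes. In KO 9 tiles were called higher at 30 ppm and 3 at 3 ppm, and none lower, where 1.13% and 1.10% of all tiles were called higher, and 0.0487% and 0.114% lower. On the adjusted p alone 1 more tile was higher at 30 ppm, in Sox21 (7.11 points, adjusted p = 0.049, background 1.18%), and 1 was lower at 3 ppm, in the body of Msi1, at 84.1% in KO against 92.7% in WT (-8.67 points, adjusted p = 0.030 by Fisher's exact test, background 0.151%). All the called tiles had a mean level between 10% and 80% over the 4 libraries. Of the 50 tiles of that class 9 and 3 were called, against 4.10% and 4.19% of such tiles genome-wide, and their median difference was 8.20 and 5.02 points, against 3.59 and 1.73. None of the 64 tiles under 10% was called (background 1.29% and 1.44%), and none of the 28 over 80% (0.339% and 0.270%). A tile near 0% or 100% has little room to differ by 10 points, and tiles of a gene are neighbours and not independent.

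**Figure D3:**
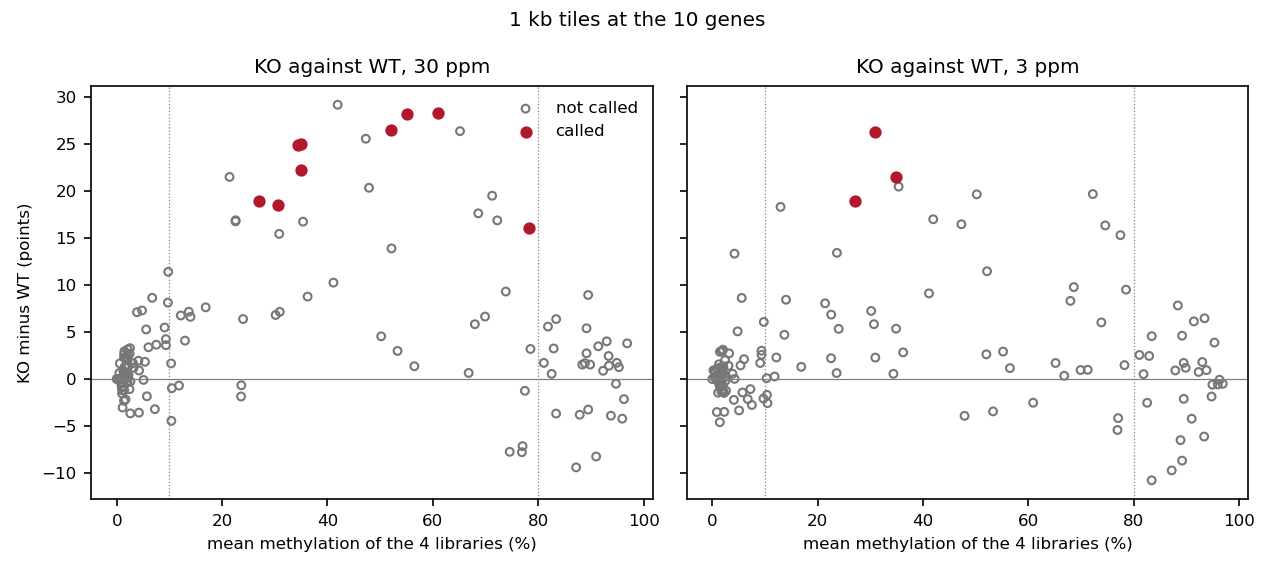
KO minus WT (y axis, points) against the mean level of the 4 libraries (x axis, percent) for the 142 tiles of 1 kb at the 10 genes, at 30 ppm on the left and 3 ppm on the right. Called tiles are filled, 9 on the left and 3 on the right, and all lie between the dotted lines at 10% and 80%.

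Called in both diets were 2 tiles, 1 at Hes5 and 1 at Sox9, where 0.367% of all tiles were. With a minimum of 10 reads, and also at equal depth, fewer tiles were called at 3 ppm, so the 2 did not both keep this. The Hes5 tile (chr4:154957001-154958000, outside any annotated gene, 3.4 kb before the start site) was at 49.2% of 130 reads in KO and 24.2% of 161 reads in WT at 30 ppm, and at 43.9% of 342 reads in KO and 22.3% of 206 reads in WT at 3 ppm. The differences were 25.0 points (adjusted p = 3.1e-03) and 21.5 points (adjusted p = 1.3e-04 by Fisher's exact test). KO was above WT at 10 of its 14 CpGs at 30 ppm and at 14 of 14 at 3 ppm. The first sequence shown above lies in this tile. The Sox9 tile (chr11:112785001-112786000, in the last exon, at the end of the coding sequence and in the 3' UTR) was at 33.1% of 148 reads in KO and 14.1% of 191 reads in WT at 30 ppm, and at 39.9% of 301 reads in KO and 20.9% of 196 reads in WT at 3 ppm. The differences were 19.0 points (adjusted p = 7.2e-03) and 18.9 points (adjusted p = 2.0e-03 by Fisher's exact test), with KO above WT at 12 and 14 of 15 CpGs.

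The remaining called tiles were called in 1 diet and are named after their values were seen. At 3 ppm it was a Hes5 tile (chr4:154960001-154961000) that reaches over the start site, but whose 11 counted CpGs ended at position -599, upstream of it, at 41.8% in KO and 15.5% in WT (26.3 points, adjusted p = 1.2e-04 by Fisher's exact test), with 40.7% and 25.3% at 30 ppm (adjusted p = 0.42). Gm20421, annotated on the other strand, overlaps it. At 30 ppm there were 3 tiles in Msi1, and 2 each at Hes1 and Fabp7. In Msi1 the tile 2.9 kb after the start (chr5:115432001-115433000, intronic) was at 67.7% in KO against 39.5% in WT at 30 ppm, and at 58.2% and 55.3% at 3 ppm. In Fabp7 the tile 0.6 kb after the start (chr10:57785001-57786000) was at 46.1% and 21.3%, against 35.4% and 34.8%. The other Fabp7 tile, 1.4 kb before the start (chr10:57783001-57784000), which holds the sequence shown for that gene, was at 45.8% and 23.5%, against 37.8% and 32.5%. At Hes1 the tile 2.9 kb before the start (chr16:30061001-30062000, outside any gene) was at 66.0% and 39.5%, against 52.6% and 50.0%. In all 7 tiles called at 30 ppm alone, KO at 30 ppm was the highest and WT at 30 ppm the lowest of the 4 libraries. The call used those same 2 libraries, and none of the 7 differed between diets by the Wald test (adjusted p from 0.15 to 0.70).

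**Figure D4:**
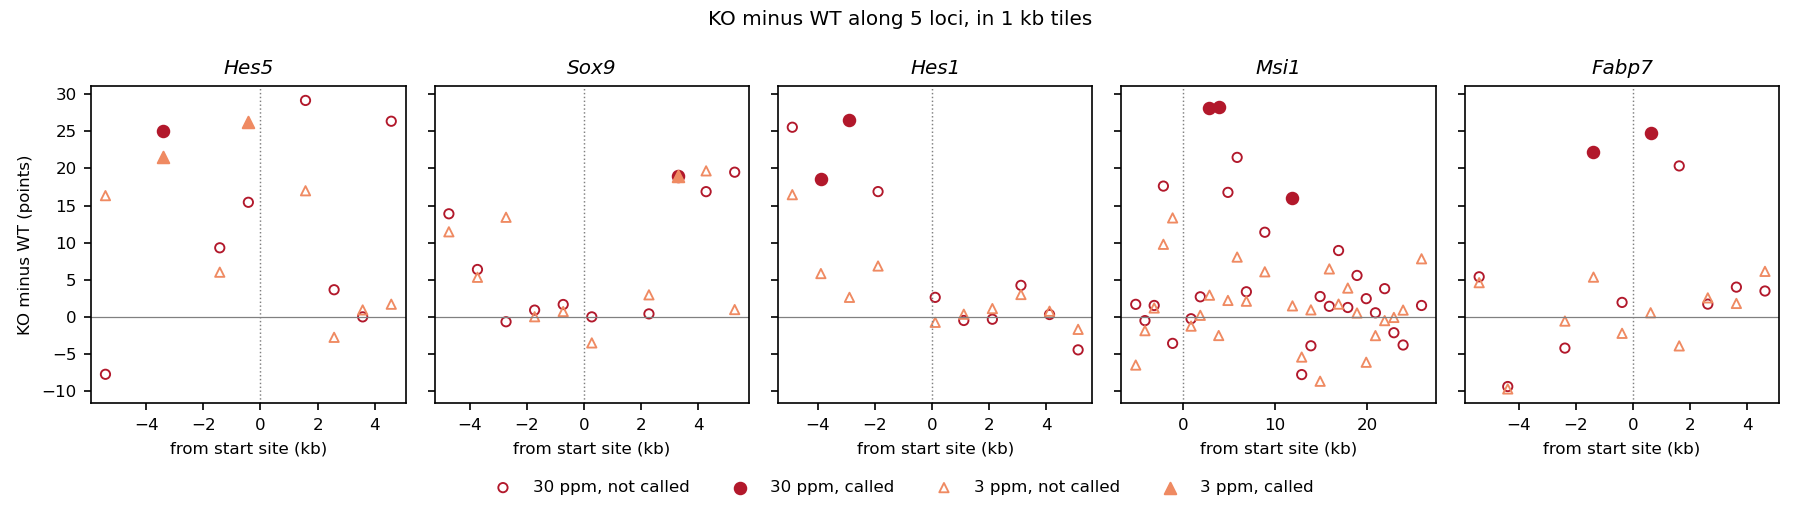
KO minus WT (y axis, points) in 1 kb tiles by distance from the start site (x axis, kb) for the 5 genes with a called tile, circles for 30 ppm and triangles for 3 ppm, filled where called. Both diets lie close together at Hes5 3.4 kb before and at Sox9 3.3 kb after the start site, and apart at Hes1, Msi1 and Fabp7.

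Over the 4 windows, the 10 genes had 8 calls higher in KO at 30 ppm, in 5 genes (Hes1, Hes5, Sox9, Msi1 and Fabp7), and 4 at 3 ppm, in 2 genes (Hes5 and Sox9), and windows of a gene share CpGs. KO minus WT differed between the 2 pairs of libraries in 7 windows of 6 genes by the Wald test on reads, and was larger at 30 ppm in all 7 (1 upstream flank, 3 downstream flanks and 3 gene bodies, no promoter, with 0.696%, 1.70%, 16.1% and 1.35% of all genes), where KO at 30 ppm was the highest and WT at 30 ppm the lowest library. At a minimum of 10 reads, and also at equal depth, 3 genes passed, which were Fabp7, Pax6 and Msi1, and Hes1, Hes5 and Sox2 did not. For Pax6 the pooled body can also reflect where its reads fell. The 7 windows were picked on the same 4 libraries, which favours KO at 30 ppm as highest and WT at 30 ppm as lowest. Diet cannot be told apart from the single embryos. The same order held over all gene bodies, where 30 minus 3 ppm had a median of 0.53 points in KO and -0.54 points in WT, and its part in these differences was not tested. Limma called 2 genes for genotype, Hes5 in its upstream flank and Sox9 in its downstream flank and body, where it called 3.27%, 7.99% and 7.13% of all genes, and no promoter, where it called 7.50%. Diet within a genotype gave 1 call in KO (Hes1) and 1 in WT (Msi1).

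**Figure D5:**
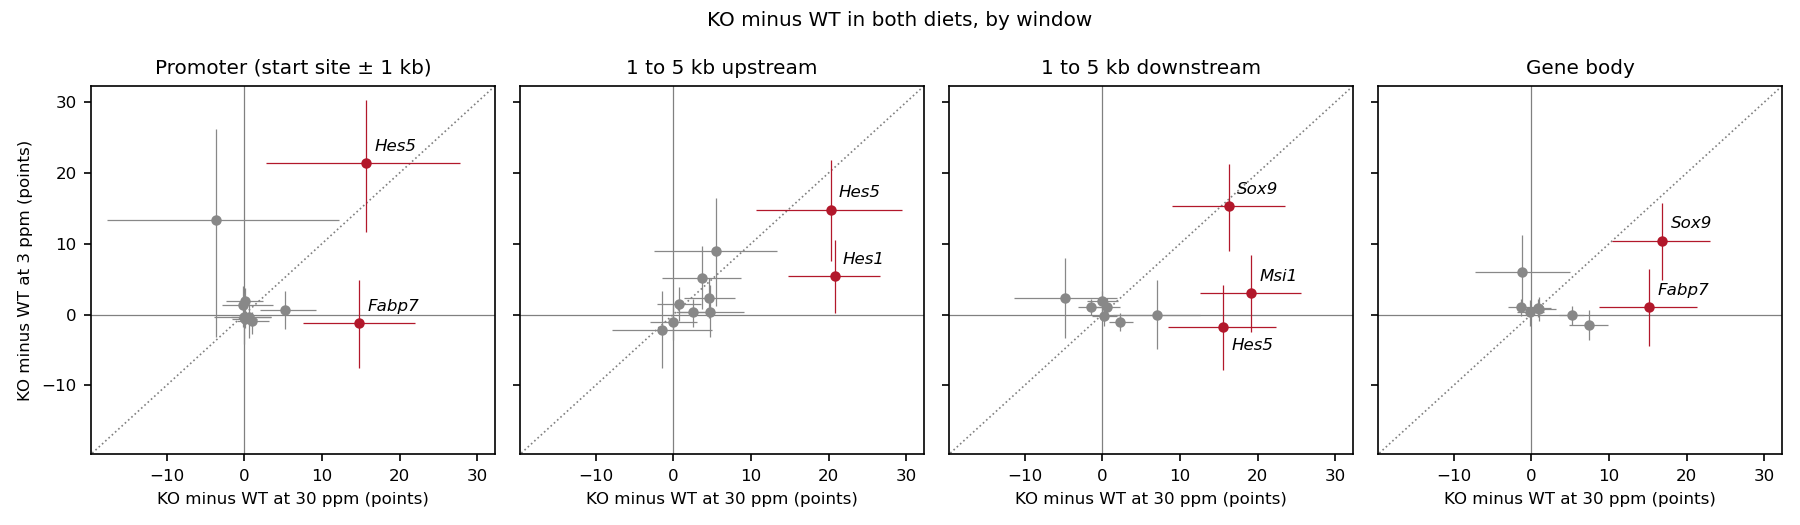
KO minus WT at 30 ppm (x axis, points) against KO minus WT at 3 ppm (y axis, points) in each window, 1 point for each gene with 95% intervals for counting error, red and named where called in either diet. Sox9, and Hes5 in its promoter and upstream flank, lie near the dotted line of equal difference, while Hes1, Msi1 and Fabp7 lie to its right.

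The authors' lists of differentially methylated regions (DMRs), called between the same pairs of libraries, held no region that overlaps any of the 10 loci, in 8 lists, where 12.2% and 12.5% of all genes overlap a region higher in KO at 30 and at 3 ppm. The nearest such region lay 17.9 kb from the Hes5 locus in both diets and 7.83 kb from that of Nes at 3 ppm.

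Notch signalling and its targets offer the closest comparison for Hes1 and Hes5. Of 20 other genes of the pathway, 19 had a testable promoter, and 6 were called higher in KO at 30 ppm and 1 at 3 ppm, where 15.4% and 16.6% of all promoters were. In the upstream flank 4 and 3 of 20 were, against 4.80% and 3.45% of all genes, in the downstream flank 4 and 4, against 9.20% and 6.59%, and in the body 1 and 1, against 3.53% and 3.41%. None was called lower in KO. Those called in both diets were Numbl (a homolog of the Notch antagonist Numb) in its promoter, Nrarp and Hey2 (both Notch targets) in the upstream flank, Dll1 (a Notch ligand) in the downstream flank, and Hes3 (a repressor of the Hes family, named after its values were seen) in the downstream flank and body. The Hey2 upstream flank was at 26.3% in KO against 11.7% in WT at 30 ppm, and at 24.8% and 12.2% at 3 ppm (adjusted p = 1.0e-10 and 2.7e-11 by Fisher's exact test). The Dll1 downstream flank was at 42.2% and 23.0%, and at 42.5% and 27.0% (adjusted p = 4.6e-06 and 2.3e-05 by Fisher's exact test). The pathway's promoters had a median difference of 2.02 points under 30 ppm and 3.62 points under 3 ppm, against 3.93 and 3.31 over all genes.

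Of 20 other stem cell and radial glia genes, 18 had a testable promoter, and 3 were called higher in KO at 30 ppm and 1 at 3 ppm, none in both, with the same background of 15.4% and 16.6%. In the upstream flank 2 and 0 of 20 were, against 4.80% and 3.45%, in the downstream flank 4 and 3, against 9.20% and 6.59%, and in the body 2 and 1, against 3.53% and 3.41%. Sox6 and Sox10, further SOX factors of this list, were called higher in both diets in the downstream flank. Lin28b, an RNA-binding protein that blocks let-7 maturation, was called lower there at 3 ppm (-11.04 points, background 0.143%) and is named after its values were seen. The marker promoters set the level of the 10 genes in context. The median promoter level of the 10 genes lay between 1.49% and 2.53% in the 4 libraries, against 84.7% to 86.5% for the 4 astrocyte genes, 25.1% to 41.0% for 8 neuronal genes, 83.8% to 85.8% for 4 genes of blood and endothelium and 1.66% to 3.45% for 4 mesenchymal genes. The mesenchymal promoters were thus as low as those of the 10 genes. These medians hide a wide spread within lists. Over the 4 libraries, neuronal promoters ranged from 1.09% to 83.6% and those of blood and endothelium from 2.97% to 93.7%. Of the 8 neuronal promoters 3 were called higher in KO at 30 ppm and 2 at 3 ppm, against 15.4% and 16.6% of all promoters, and none was called lower. No promoter of the other 3 lists was called. Of the 4 mesenchymal genes, 1 was called higher at 30 ppm and 2 at 3 ppm in each flank, with a median upstream difference of 5.59 and 8.92 points, against 2.27 and 1.03 over all genes. Called in both diets were Tubb3 in its promoter, Rbfox3 in its downstream flank, Col1a1 in both flanks and Hba-x in its downstream flank and body, and whether the mix of cells differed between the embryos was not tested.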

How the data were processed

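WGBS was performed on 4 brains of E11.5 embryos, 1 library for each genotype and diet. Per the labels and the study's methods, the authors trimmed reads (Trim Galore 0.6.10), aligned them to GRCm38 (Bismark 0.23.1), removed duplicates and merged both strands of each CpG. Submitters' notes also name ChIPseeker 1.26.2 and R 4.0.5. The deposited tables give a methylated fraction (0 to 1) and an unnormalised count of reads for each CpG, and their product, whole within 4.37e-11, gave the methylated reads. The deposited score column of the DMR lists was not used, and 8 of the 12 lists served for position alone.

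Of the autosomal CpGs, 14907672 had 5 or more reads in all 4 libraries. Methylated and unmethylated reads were summed over each window with 3 or more such CpGs, using GENCODE vM21 gene records. Reads covering several CpGs were counted at each, so p-values and intervals can be too small. Libraries were compared by Fisher's exact test with Benjamini-Hochberg adjustment over all genes of a window, or over 1863069 tiles of 1 kb. The Wald test compared the log odds ratios of the diets with 0.5 added to each count. limma 3.58.1 (R 4.3.3) fitted log2((methylated + 1)/(unmethylated + 1)) on genotype and diet, with 1 residual degree of freedom. That residual is the difference of KO minus WT between the diets, so the diets stand in for replicates. Intervals are 95% Wilson for a level and Newcombe for a difference, and they and the limits that a count of 0 allows (3 counts) cover counting error only. Mean coverage was 13.2 and 14.3 reads in KO and WT at 30 ppm, and 21.2 and 16.2 at 3 ppm. Scripts used Python 3.11.15, scipy 1.17.1, numpy 2.4.6 and pandas 2.3.3, and were tested on simulated data.

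The genes, lists and tests were chosen with earlier results of these data known. All 10 genes are named, and from each other list at most 4 genes called in the same direction in both diets in a window, the largest by mean difference, beside Hes3 and Lin28b, named after their values were seen. Genes on X (Dcx, Syp and Gata1) were not tested. Alternatives were another coverage minimum, equal depth, other windows and start sites, no minimum difference, and z values divided by their robust SD.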

Additional observations from a re-analysis of the deposited data

Results flagged for a closer look

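In 7 windows KO minus WT differed between the diets by the Wald test on reads, a test of the difference itself that takes no account of the spread between embryos. The adjusted p was 0.0418 for the upstream flank of Hes1. It was 0.0437 for the downstream flank of Sox2, 0.0344 for that of Hes5 and 0.021 for that of Msi1. In the gene bodies it was 2.24e-05 for Pax6, 8.8e-06 for Msi1 and 0.0111 for Fabp7. Over all genes 0.696% of upstream flanks, 1.70% of downstream flanks and 16.1% of gene bodies passed the same test. The windows of Hes1, Sox2 and Hes5 lost this at a minimum of 10 reads and at equal depth, and the downstream flank of Msi1 at a minimum of 10 reads. The Pax6 body pools parts of very different level, so its result can also depend on where its reads fell. In all 7 windows KO at 30 ppm was the highest library and WT at 30 ppm the lowest, but the test that picked them used the same 4 libraries, which favours this order. No promoter of the 10 genes passed it, where 1.35% of all promoters did.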

How the results depend on the processing

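No paired analysis was possible because each group was 1 library with no replicate number to pair by, beyond the diet term of the limma fit, and for the same reason no library could be left out of a comparison of 2. Of 494 repeats of single KO minus WT differences, 415 kept their direction and side of the threshold, 15 lost a call, 1 gained one (the Hes5 promoter at 30 ppm, widened to 2.5 kb on each side) and 63 moved. Of these, 58 took the other sign or 0, all from differences of 6.04 points or less without a call, and no called difference changed sign. As a mean of CpG levels the Sox9 downstream flank at 30 ppm and the Sox9 body in both diets were under 10 points apart. With the widened test the calls of KO against WT fell to 0 in the promoter in both diets, to 1 and 0 in the upstream flank, to 1 and 0 in the downstream flank and to 0 in the gene body in both diets, and both diet calls were lost (0 in KO, 0 in WT). With a minimum of 10 reads, which left 5 promoters and 96 tiles to test, the promoter and the upstream flank had 0 calls at 3 ppm, both diet calls were lost (0), 4 and 1 tiles were called at 30 and 3 ppm, and 3 genes differed between the diets. At equal depth the upstream flank had 0 calls at 3 ppm and 0 between the KO libraries, 1 tile was called at 3 ppm and 3 genes differed between the diets. With no coverage minimum the promoter and the gene body had 0 calls at 3 ppm, and 1 downstream flank differed between the KO libraries. From the start of the longest coding transcript the upstream flank had 0 calls between the KO libraries. On the adjusted p alone 2 promoters and 4 gene bodies were higher in KO at 30 ppm, where 21.0% and 46.1% of all genes were. By diet 3 and 2 gene bodies passed in KO and WT, without a share over all genes to set beside them. Of the 10 unmethylated stretches, 6 were narrower in KO in both diets, and 3 were with a run of 5 CpGs. The share of all genes narrower in both diets was not taken. With a run of 3 CpGs, 50.3% of all genes were narrower at 30 ppm and 46.1% at 3 ppm. The cause of the losses at equal depth and under the widened test was not tested. No CpG within 250 bp of the start site was counted for Sox1, Msi1 or Hes5, so no difference was tested there.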
